A study of Mus musculus with 12 samples.

Results

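This account concerns 9 proneural and neuronal basic helix-loop-helix (bHLH) genes, Atoh1, Ptf1a, Neurog2, Neurod1, Neurod2, Neurod6, Nhlh1, Nhlh2 and Bhlhe22. They were taken by symbol from the 55385 genes listed in the deposited tables, and all 9 were found. Polyadenylated RNA of whole cerebellum was sequenced from 3 EED-/- and 3 WT libraries of C57BL/6 mice at postnatal day 14. The EED-/- mice are conditional knockouts of Eed, a core subunit of Polycomb repressive complex 2, which methylates histone H3 at lysine 27, and the WT mice are wild type. No source used here names the Cre driver, the deleted exons or the sex, so which cells lost Eed, and when, is not known. Nor do the labels tie each library to an animal of its own, and the p-values therefore measure the spread between libraries, which may be technical. Samples for H3K27ac, H3K27me3 and input chromatin exist in the series and were not analysed here.

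Proteins of the bHLH family bind DNA as dimers at short E-box motifs, and tissue-restricted members usually pair with a widely expressed E protein. Proneural members start neuronal commitment in dividing progenitors and neuronal members act later in cells that leave the cycle, while Id proteins sequester the E partners and Hes and Hey proteins repress proneural genes downstream of Notch. In the cerebellum Atoh1 marks the rhombic lip lineage, which gives rise to granule cells and other glutamatergic neurons, and Ptf1a marks the ventricular zone lineage of Purkinje cells and GABAergic interneurons.

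E-boxes were looked for in the promoters, because bHLH genes can themselves be bound by bHLH proteins. RefSeq promoter windows of GRCm38.p6, each running from 250 bases before to 50 bases after the start site, were matched for 8 of the 9 genes, and Bhlhe22 had no entry. The 250 bases before the start are printed for the 4 matched genes whose difference between genotypes was called under each of 13 alternative analyses, with every E-box of the form CANNTG in capitals. The windows lie at chr2:79456637-79456886 on the minus strand for Neurod1, chr11:98329646-98329895 on the minus strand for Neurod2, chr3:102009895-102010144 on the plus strand for Nhlh2 and chr3:127632886-127633135 on the plus strand for Neurog2.
Neurod1: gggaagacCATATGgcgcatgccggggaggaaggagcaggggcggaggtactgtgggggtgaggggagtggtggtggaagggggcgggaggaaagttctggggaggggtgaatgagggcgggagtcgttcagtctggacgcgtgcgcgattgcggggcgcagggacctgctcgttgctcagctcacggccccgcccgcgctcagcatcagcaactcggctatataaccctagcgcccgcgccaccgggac
Neurod2: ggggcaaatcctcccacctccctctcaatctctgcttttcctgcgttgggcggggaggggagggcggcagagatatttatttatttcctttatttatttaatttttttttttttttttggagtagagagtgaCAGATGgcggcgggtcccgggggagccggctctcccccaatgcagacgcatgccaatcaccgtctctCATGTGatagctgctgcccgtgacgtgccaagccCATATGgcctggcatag
Nhlh2: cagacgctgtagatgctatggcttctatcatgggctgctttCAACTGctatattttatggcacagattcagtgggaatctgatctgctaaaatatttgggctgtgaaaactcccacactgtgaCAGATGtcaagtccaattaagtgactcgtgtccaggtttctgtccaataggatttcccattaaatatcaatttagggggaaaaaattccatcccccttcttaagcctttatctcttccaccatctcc
Neurog2: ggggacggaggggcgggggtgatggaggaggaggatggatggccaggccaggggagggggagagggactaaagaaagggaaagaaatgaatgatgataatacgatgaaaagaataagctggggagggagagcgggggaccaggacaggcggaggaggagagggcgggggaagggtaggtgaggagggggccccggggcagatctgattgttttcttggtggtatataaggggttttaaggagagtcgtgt

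CANNTG reads the same on both strands, so 1 search covered both. Over the whole windows it was present in 5 of the 8 genes, with 1 match in Neurod1, 3 in Neurod2, 2 in Neurod6, 2 in Nhlh1 and 4 in Nhlh2. Atoh1, Neurog2 and Ptf1a had none, and 72.3% of all 32851 windows held at least 1. The form CAGATG, which the other strand reads as CATCTG and to which Neurod and Neurog proteins are known to bind, stood in the windows of Neurod2, Nhlh1 and Nhlh2, against 17.2% of all windows. CATATG stood in Neurod1, with its first base at position -242 from the start, and in Neurod2, at position -17, against 3.91% of all windows. CAGCTG was present in Nhlh2 alone of the 8 genes, at position 45, against 16.3% of all windows. CACGTG was in none of them, against 7.15% of all windows. These matches describe the letters in a window and say nothing of binding.

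The windows also fell into a CpG-rich and a CpG-poor set. The ratio of observed to expected CpG was 0.840 in Atoh1, 0.837 in Neurod1, 0.697 in Neurod2, 0.677 in Ptf1a and 0.570 in Neurog2, all above the median of 0.384 over all windows. It was 0.192 in Neurod6, 0.143 in Nhlh2 and 0.0840 in Nhlh1, all below it. Of the genes described as lower in EED-/- below, Neurod1 and Neurod2 had CpG-rich windows and Nhlh1 and Nhlh2 CpG-poor windows.

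**Figure D1:**
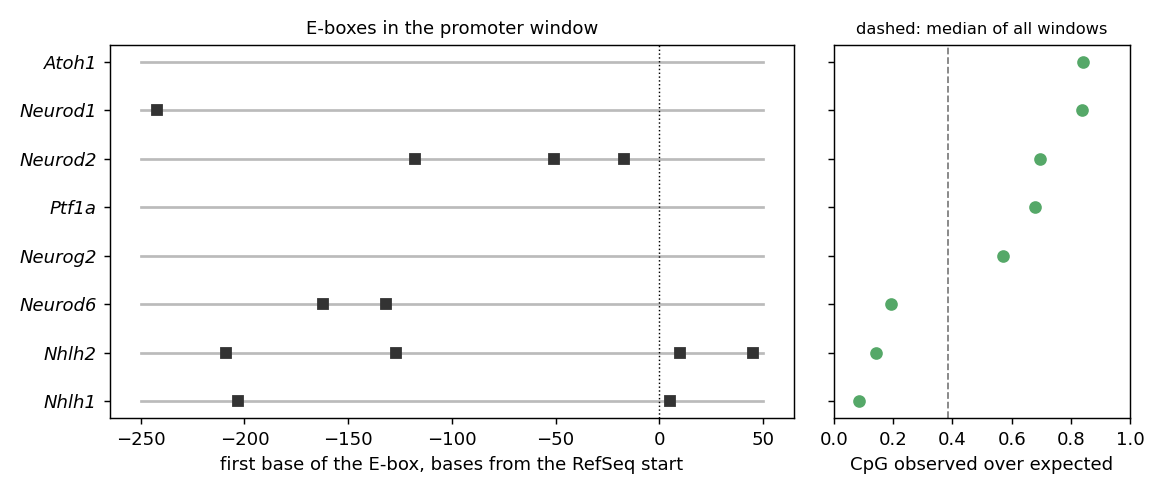
E-box matches (CANNTG, squares, placed by their first base from the RefSeq start) in the promoter windows of 8 bHLH genes, left, and the ratio of observed to expected CpG of each window, right, with the median of 0.384 over all windows dashed. Nhlh2 holds 4 matches and Neurod2 holds 3, while Atoh1, Ptf1a and Neurog2 hold none and are CpG-rich.

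The libraries held 19621814 to 20366173 estimated counts each. Levels are given as CPM, the counts scaled to the library total with TMM factors, and the filter on low counts left 18091 genes for the test. Differences are log2 fold changes of EED-/- over WT from edgeR's quasi-likelihood F test, and a gene is called where the Benjamini-Hochberg adjusted p over all tested genes is under 0.05. Eed was at 11.6, 9.31 and 11.3 CPM in EED-/- libraries and at 20.1, 26.6 and 23.5 CPM in WT libraries (log2 fold change -1.12, edgeR adjusted p = 0.0015), so the targeted gene was lower in each EED-/- library. Mitochondrial genes took 6.45% to 8.04% of counts in EED-/- libraries and 3.21% to 6.37% in WT libraries (exact permutation test, two-sided, p = 0.1, below which 3 against 3 libraries cannot go), and the part of this in the results was not tested.

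Of the 9 bHLH genes, 7 passed the filter on low counts, and of these 5 fell, 1 rose and 1 was not called. Neurod1, Neurod2, Bhlhe22, Nhlh2 and Nhlh1 fell, and Neurog2 rose. Over all tested genes 14.1% were called lower and 11.7% higher, or 25.8% in either direction, with a median log2 fold change of -0.03, against -1.26 over the 7 genes. The EED-/- and WT libraries did not overlap in CPM for 5 genes lower in EED-/- and 1 higher, against 23.8% and 20.1% of all tested genes, or 43.9% in either direction. The summed level of the 9 genes was 120 to 141 CPM in EED-/- libraries and 711 to 797 CPM in WT libraries, without overlap. In whole tissue, fewer cells of a type and less RNA per cell cannot be told apart.

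**Figure D2:**
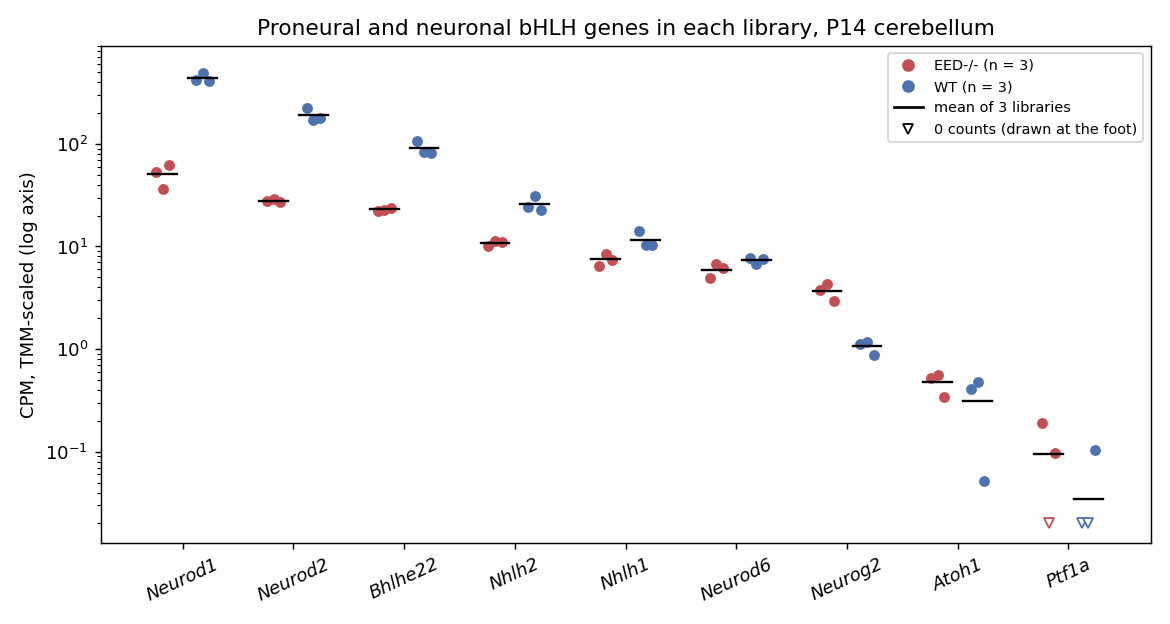
CPM of each of the 9 bHLH genes (log axis, TMM-scaled) in the 3 EED-/- and 3 WT libraries, with bars at the means and open triangles at the foot for libraries with 0 counts. The libraries of Neurod1, Neurod2, Bhlhe22, Nhlh2 and Nhlh1 lie lower in EED-/-, those of Neurog2 lie higher in EED-/-, and those of Neurod6, Atoh1 and Ptf1a overlap.

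Among the proneural genes, Atoh1 and Ptf1a were too rare at this age and depth to be tested, while Neurog2 rose. Atoh1 (ENSMUSG00000073043.5, chromosome 6, 64729125 to 64731245, plus strand, 1 exon), which drives the proliferation of granule cell progenitors, had 11, 12 and 7 counts in EED-/- libraries, against 8, 9 and 1 counts in WT libraries. The groups overlapped, and the ratio of the summed 30 counts in EED-/- to 18 counts in WT was 1.53, with a 95% exact conditional binomial interval of 0.823 to 2.91 that covers counting error only. A difference in Atoh1 within that interval was not detectable at this depth. Ptf1a (ENSMUSG00000026735.2, chromosome 2, 19445663 to 19447501, plus strand, 2 exon blocks), which specifies GABAergic neurons, had 4, 0 and 2 counts in EED-/- libraries and 0, 0 and 2 counts in WT libraries. The sums of 6 and 2 counts gave a ratio of 2.75 with an interval of 0.491 to 27.8. Ptf1a shares 609 exonic bases with the antisense gene Ptf1aos on the opposite strand, which had 1 count in EED-/- and 0 in WT libraries. No source used here says whether counting used strand, so reads there cannot be assigned to either gene.

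Neurog2 was the exception among the tested genes. Neurog2 (ENSMUSG00000027967.8, chromosome 3, 127633135 to 127635631, plus strand, 2 exon blocks) is a proneural gene of glutamatergic neurons of the cortex and is known in the embryonic cerebellar ventricular zone. It was at 3.79, 4.33 and 2.94 CPM in EED-/- libraries, against 1.13, 1.18 and 0.879 CPM in WT libraries. These rest on 80, 92 and 60 counts in EED-/- libraries and 22, 22 and 17 counts in WT libraries. Each EED-/- library was above each WT library, although the level stayed low in both genotypes. The means of 3.68 ± 0.701 CPM in EED-/- and 1.06 ± 0.161 CPM in WT (SD, n = 3 libraries each) gave a log2 fold change of 1.79 (SE 0.251, edgeR adjusted p = 0.00169), or 3.46-fold higher. By this change Neurog2 stood above 98.5% of all tested genes.

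The neuronal differentiation factors Neurod1 and Neurod2 showed the largest falls of the 7. Neurod1 (ENSMUSG00000034701.9, chromosome 2, 79452521 to 79456751, minus strand, 2 exon blocks), which granule cells need to differentiate and survive, was at 53.2, 36.4 and 61.8 CPM in EED-/- libraries and at 422, 492 and 409 CPM in WT libraries. The groups were far apart, with every WT library at several times the highest EED-/- library. The means of 50.5 ± 12.9 CPM in EED-/- and 441 ± 44.6 CPM in WT (SD, n = 3 each) gave a log2 fold change of -3.13 (SE 0.202, edgeR adjusted p = 5.12e-05), or 8.73-fold lower. Of the 18091 tested genes 46 had a lower log2 fold change. Neurod1 shares 201 exonic bases with Cerkl on the same strand, so some reads could have been split between these genes. It also shares 154 with a noncoding gene on the other strand, which is not among the genes with deposited counts. Cerkl was at 1.05 ± 0.261 CPM in EED-/- and 3.22 ± 1.1 CPM in WT libraries (log2 fold change -1.60, edgeR adjusted p = 0.0097), a small level beside that of Neurod1.

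Neurod2 fell by nearly as much, with little spread among EED-/- libraries. Neurod2 (ENSMUSG00000038255.6, chromosome 11, 98325415 to 98329648, minus strand, 2 exon blocks) acts in the survival and synaptic maturation of neurons, granule cells among them. It was at 27.7, 28.9 and 26.9 CPM in EED-/- libraries, against 221, 170 and 179 CPM in WT libraries. The groups did not overlap. The means were 27.8 ± 1.01 CPM in EED-/- and 190 ± 27.3 CPM in WT (SD, n = 3 each), a log2 fold change of -2.77 (SE 0.135, edgeR adjusted p = 3.66e-05) and a 6.82-fold lower level. A lower log2 fold change was found for 76 genes.

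Neurod6, the third Neurod gene, was not called. Neurod6 (ENSMUSG00000037984.9, chromosome 6, 55677822 to 55681263, minus strand, 2 exon blocks), best known from pyramidal neurons of the forebrain, was at 4.88, 6.77 and 6.17 CPM in EED-/- libraries and 7.70, 6.71 and 7.49 CPM in WT libraries. The groups overlapped, since EED-/- replicate 2 lay above WT replicate 2. The means of 5.94 ± 0.969 CPM in EED-/- and 7.30 ± 0.523 CPM in WT (SD, n = 3 each) gave a log2 fold change of -0.30 (SE 0.175, 95% interval -0.70 to 0.10, edgeR adjusted p = 0.252). The interval leaves room for a fall, but not for one of the size measured for Neurod1 or Neurod2.

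Of the Nhlh pair, known also as NSCL1 and NSCL2, Nhlh2 fell clearly and Nhlh1 fell by a small amount. Nhlh1 (ENSMUSG00000051251.3, chromosome 1, 172052292 to 172057573, minus strand, 2 exon blocks) is expressed in newly postmitotic neurons, including granule cells that have just left the cycle. It was at 6.49, 8.51 and 7.44 CPM in EED-/- libraries, against 14.2, 10.3 and 10.4 CPM in WT libraries, without overlap. The means of 7.48 ± 1.01 CPM in EED-/- and 11.6 ± 2.20 CPM in WT (SD, n = 3 each) gave a log2 fold change of -0.63 (SE 0.184, edgeR adjusted p = 0.0351), or 1.55-fold lower. This call was lost without EED-/- replicate 1, 2 or 3 or WT replicate 1 or 3, for a log2 fold change of -0.74 to -0.42 over all 6 such fits, and under upper-quartile scaling or library size alone. Nhlh2 (ENSMUSG00000048540.8, chromosome 3, 102010076 to 102015492, plus strand, 1 exon block), known for its part in hypothalamic control of body weight and fertility, was at 10.1, 11.3 and 11.1 CPM in EED-/- libraries and 24, 31.1 and 22.7 CPM in WT libraries. The lowest WT library was above the highest EED-/- library. The means of 10.8 ± 0.640 CPM in EED-/- and 25.9 ± 4.53 CPM in WT (SD, n = 3 each) gave a log2 fold change of -1.26 (SE 0.153, edgeR adjusted p = 0.00088), or 2.40-fold lower.

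Bhlhe22, a repressor related to the Olig factors and known from cortical, spinal and retinal neurons, fell between Neurod2 and Nhlh2 in size. Bhlhe22 (ENSMUSG00000025128.7, chromosome 3, 18054174 to 18057517, plus strand, 1 exon) was at 22.0, 22.9 and 23.9 CPM in EED-/- libraries and 106, 82.4 and 81.8 CPM in WT libraries. The EED-/- libraries were nearly equal and far below the WT libraries. The means of 22.9 ± 0.962 CPM in EED-/- and 90.2 ± 13.9 CPM in WT (SD, n = 3 each) gave a log2 fold change of -1.97 (SE 0.136, edgeR adjusted p = 6.72e-05), or 3.93-fold lower, with 206 of the tested genes lower still.

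The authors' deposited table gives the same directions for the 7 genes. In the authors' deposited table the log2 fold changes were -3.10 for Neurod1, -2.75 for Neurod2, -1.96 for Bhlhe22, -1.24 for Nhlh2, -0.62 for Nhlh1, -0.28 for Neurod6 and 1.82 for Neurog2. The deposited adjusted p was 0.0415 for Nhlh1, 0.484 for Neurod6 and 3.16e-05 for Neurog2 in the authors' deposited table. For Atoh1 the authors' deposited table has a log2 fold change of 0.62 with an SE of 0.912 and an adjusted p of 0.718, and for Ptf1a 1.49 with an SE of 2.42.

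To compare levels between genes, CPM was divided by exon length in kilobases. Neurod1 led in both genotypes, at 18.5 ± 4.73 CPM per kb in EED-/- and 162 ± 16.3 CPM per kb in WT libraries (SD, n = 3 each). Neurod2 came next at 8.86 ± 0.322 CPM per kb in EED-/- and 60.5 ± 8.70 CPM per kb in WT libraries. Bhlhe22 was the third at 6.86 ± 0.288 CPM per kb in EED-/- and 27 ± 4.17 CPM per kb in WT libraries. These 3 kept the top places in each genotype, and Neurog2, Atoh1 and Ptf1a kept the lowest.

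The middle of the order was close. Per kilobase Nhlh1 was at 3.04 ± 0.412 CPM in EED-/- and 4.71 ± 0.894 CPM in WT libraries, Neurod6 at 2.76 ± 0.451 CPM in EED-/- and 3.39 ± 0.243 CPM in WT libraries, and Nhlh2 at 2.0 ± 0.118 CPM in EED-/- and 4.79 ± 0.837 CPM in WT libraries. Nhlh1 and Neurod6 did not differ beyond their SDs in EED-/- libraries, and Nhlh2 and Nhlh1 did not in WT libraries. Neurog2 was at 1.65 ± 0.315 CPM per kb in EED-/- and 0.477 ± 0.0725 CPM per kb in WT libraries, which overlapped Nhlh2 within the SDs in EED-/- libraries. Atoh1 was at 0.224 ± 0.0554 CPM per kb in EED-/- and 0.149 ± 0.109 CPM per kb in WT libraries, and Ptf1a at 0.0635 ± 0.0628 CPM per kb in EED-/- and 0.0228 ± 0.0396 CPM per kb in WT libraries.

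The mixture of bHLH transcripts therefore had a different composition. Neurod1 and Neurod2 together made up 56.0% to 65.2% of the summed level per kb of the 9 genes in EED-/- libraries and 83.0% to 85.9% in WT libraries. The share of Neurod1 was 41.7 ± 7.53% in EED-/- and 61.5 ± 4.52% in WT libraries (SD, n = 3 each). The share of Bhlhe22 was 15.7 ± 1.13% in EED-/- and 10.3 ± 1.35% in WT libraries, although its own level was lower in EED-/-. Neurog2 made up 3.82 ± 1.03% in EED-/- and 0.181 ± 0.0169% in WT libraries. These shares are bound to move together, since they sum to a fixed total.

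Granule neurons are the most numerous neurons of the cerebellum, so each gene was also set against 13 granule neuron markers within each library. All 13 markers, among them Cbln1, Gabra6, Zic1 and Grin2c, fell, with a summed level of 957 to 1213 CPM in EED-/- libraries and 6316 to 8026 CPM in WT libraries. The measure is the log2 CPM of the gene minus the mean log2 CPM of the markers, and no scaling between libraries enters it. For Neurod1 it was -0.34 ± 0.160 in EED-/- and -0.05 ± 0.230 in WT libraries (SD, n = 3 each), a difference of -0.29 (exact two-sided permutation p = 0.3, 0.35 adjusted over the 7 genes). For Neurod2 it was -1.16 ± 0.311 in EED-/- and -1.27 ± 0.0829 in WT libraries, a difference of 0.11 (exact permutation p = 0.7, adjusted 0.7). For both genes the libraries overlapped, and a difference beyond the library spread was not detected. These small differences moved with single libraries: that of Neurod1 was -0.41 without WT replicate 1, when the groups no longer overlapped, -0.20 without EED-/- replicate 2 and -0.18 without WT replicate 2, and that of Neurod2 was -0.04 without EED-/- replicate 2, 0.27 without EED-/- replicate 3, when the groups no longer overlapped, and 0.06 without WT replicate 2.

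The other 5 genes were higher relative to the markers in each EED-/- library than in any WT library. Any gene that fell less than the mean of the markers comes out higher by this measure. Only 1.14% of all tested genes had a lower log2 fold change than Bhlhe22, the most reduced of the 5. The sign is thus shared with most tested genes and is not particular to these 5, and the share of all genes without overlap was not computed. Their differences, EED-/- minus WT, were 0.91 for Bhlhe22, 1.62 for Nhlh2, 2.25 for Nhlh1, 2.56 for Neurod6 and 4.56 for Neurog2 on the log2 scale. Each had an exact permutation p = 0.1, adjusted to 0.14 over the 7 genes, and 0.1 is the smallest p that 3 against 3 libraries can give, so none could pass 0.05. In these libraries the falls of Bhlhe22, Nhlh2 and Nhlh1 were smaller than the mean fall of the granule neuron markers. Set against 14 granule cell progenitor markers in place of the granule neuron markers, the differences of these 3 genes had the opposite sign, with -1.76 for Bhlhe22, -1.04 for Nhlh2 and -0.42 for Nhlh1 and no overlap between genotypes. These values lie close to the plain log2 fold changes of -1.97, -1.26 and -0.63, and the share of all genes without overlap was not computed for the progenitor measure either. Neurod6 overlapped there, at -0.11 (exact permutation p = 0.7). The part of a change in cell numbers in these results was not tested.

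**Figure D3:**
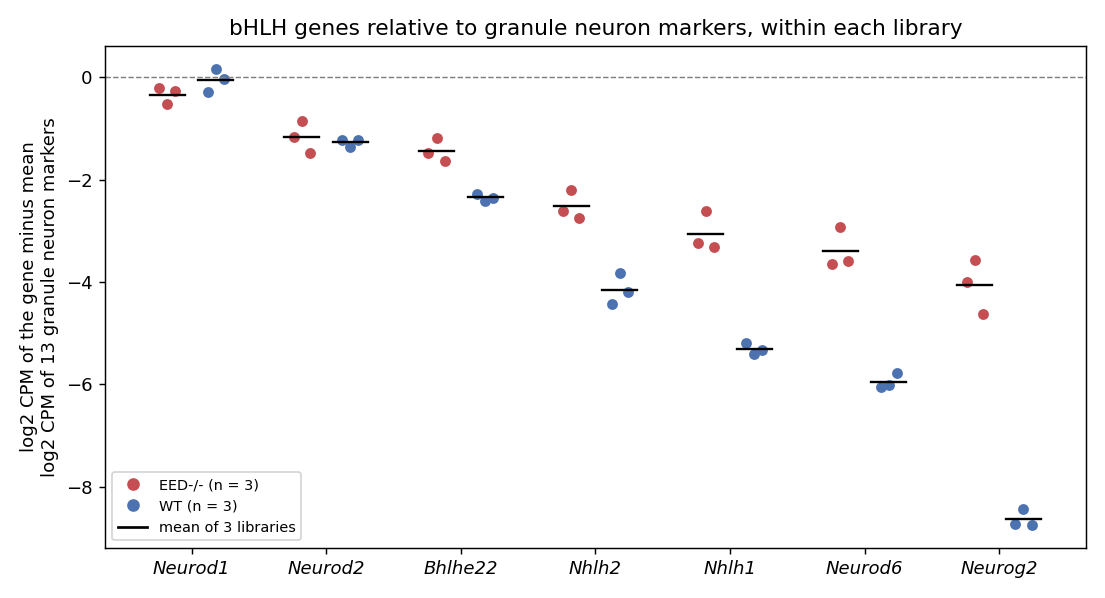
Log2 CPM of each tested bHLH gene minus the mean log2 CPM of 13 granule neuron markers, within each of the 3 EED-/- and 3 WT libraries, with bars at the means. The genotypes overlap for Neurod1 and Neurod2, and the EED-/- libraries lie above the WT libraries for Bhlhe22, Nhlh2, Nhlh1, Neurod6 and Neurog2.

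Paralogues were compared within a library by the log2 ratio of their counts. Neurod2 over Neurod1 was -0.82 ± 0.444 in EED-/- and -1.22 ± 0.301 in WT libraries (SD, n = 3 each), a difference of 0.40 (exact two-sided permutation p = 0.5, 0.5 adjusted over both ratios), with overlap. It was 0.15 without EED-/- replicate 2, 0.24 without WT replicate 2 and at most 0.58 with any other library left out. Nhlh2 over Nhlh1 was 0.53 ± 0.117 in EED-/- and 1.15 ± 0.415 in WT libraries, a difference of -0.62 (exact permutation p = 0.1, adjusted 0.2). The 3 EED-/- libraries were below all WT libraries in the second ratio, so Nhlh2 was the more reduced of that pair in these libraries, at the smallest p the design allows, and the difference was -0.41 without WT replicate 2.

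The partners, inhibitors and relatives of these factors included genes called in both directions. Of 45 other bHLH genes listed by role 30 were tested, 8 rose and 5 fell, with a median log2 fold change of 0.19, beside 11.7% higher and 14.1% lower over all genes. Leaving out 1 library at a time gave 4 to 10 higher and 2 to 5 lower. The higher count was 4 without EED-/- replicate 2 or WT replicate 3, and the lower count was 2 without EED-/- replicate 1 or 3 and 3 without EED-/- replicate 2, WT replicate 1 or WT replicate 3.

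Of the 3 E proteins, the dimer partners, Tcf4 fell and Tcf3 and Tcf12 were not called. Tcf4 was at 186 ± 17.6 CPM in EED-/- and 306 ± 84.9 CPM in WT libraries (SD, n = 3 each; log2 fold change -0.72, SE 0.194, edgeR adjusted p = 0.0271), and this call was lost without EED-/- replicate 1, 2 or 3 or WT replicate 3. Tcf3 had a log2 fold change of -0.37 and Tcf12 of -0.20. None of the 4 Id genes was called by edgeR, DESeq2 or limma-voom, with 0 at an unadjusted edgeR p under 0.05. The Id gene with the smallest p, Id3, was at 30.1 ± 6.22 CPM in EED-/- and 25.3 ± 3.22 CPM in WT libraries.

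Of 7 tested Hes and Hey repressors 2 rose and 1 fell. Heyl, a Notch target known from vessels and from neural progenitors, was at 23.9 ± 4.0 CPM in EED-/- and 10.8 ± 1.07 CPM in WT libraries (log2 fold change 1.14, edgeR adjusted p = 0.00165), and kept its call under all 13 alternatives. Hes3, a repressor of the early neural tube and isthmus, was at 23.7 ± 4.51 CPM in EED-/- and 15.8 ± 0.251 CPM in WT libraries (0.58, edgeR adjusted p = 0.0232), a call lost without EED-/- replicate 2 or WT replicate 3. Hey1 was at 47.7 ± 2.75 CPM in EED-/- and 63.7 ± 4.82 CPM in WT libraries (-0.42, edgeR adjusted p = 0.0236), and was called in 4 of the 13 alternatives.

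Of 8 tested neural bHLH genes outside the 9, 3 rose, Tal1 and Olig2 among them, and Atoh8 and Atoh7 fell. Without EED-/- replicate 1, EED-/- replicate 2 or WT replicate 3 only 1 of the 8 was called higher. Tal1, a factor of blood and of midbrain and hindbrain GABAergic neurons, was at 17.1 ± 3.09 CPM in EED-/- and 4.57 ± 1.13 CPM in WT libraries (log2 fold change 1.90, edgeR adjusted p = 0.000753). Atoh8 and Atoh7 are the relatives of Atoh1, and Atoh7 is the proneural gene of retinal ganglion cells. Atoh8 was at 1.64 ± 0.0687 CPM in EED-/- and 6.33 ± 1.83 CPM in WT libraries (-1.94, edgeR adjusted p = 0.00107). Atoh7 was at 2.19 ± 0.919 CPM in EED-/- and 6.79 ± 1.15 CPM in WT libraries (-1.63, edgeR adjusted p = 0.00658).

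Of 8 tested bHLH genes of other tissues, the cardiac and neural crest factor Hand2, the muscle factor Myog and the mesenchymal factor Twist1 rose, and Tcf15, a factor of somites, fell. Myog had 126 counts over the EED-/- libraries and 4 over the WT libraries (edgeR adjusted p = 0.0011), and Hand2 had 48 in EED-/- and 0 in WT libraries (edgeR adjusted p = 0.00228). Both passed the filter on low counts only through the EED-/- libraries, and Tcf15 only through the WT libraries. Their place in the counts of genes that rose or fell thus depends on that filter, although each was called in the same direction without it. Twist1 was at 3.0 ± 0.998 CPM in EED-/- and 1.23 ± 0.445 CPM in WT libraries (1.28, edgeR adjusted p = 0.0257), and was called in 9 of the 13 alternatives. Tcf15 had 15 counts in EED-/- and 47 in WT libraries (-1.75, edgeR adjusted p = 0.0152) and was called in 8 of them. Besides Myog, the skeletal muscle list holds the bHLH gene Myod1, which was not called, and 4 markers outside the bHLH family, Myh3, Myh8, Ckm and Acta1. All 4 of these rose, with mean levels summing to 79.4 CPM in EED-/- and 2.57 CPM in WT libraries. Over the WT libraries Myh3 had 26 counts, Myh8 22 and Ckm 2, so they too passed the filter only through the EED-/- libraries. The skeletal muscle list had 5 genes called higher both with and without that filter. Meningeal markers also rose, 4 of 4, with 227 to 319 CPM in EED-/- and 93.3 to 114 CPM in WT libraries. Their part in these results was not tested.

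**Figure D4:**
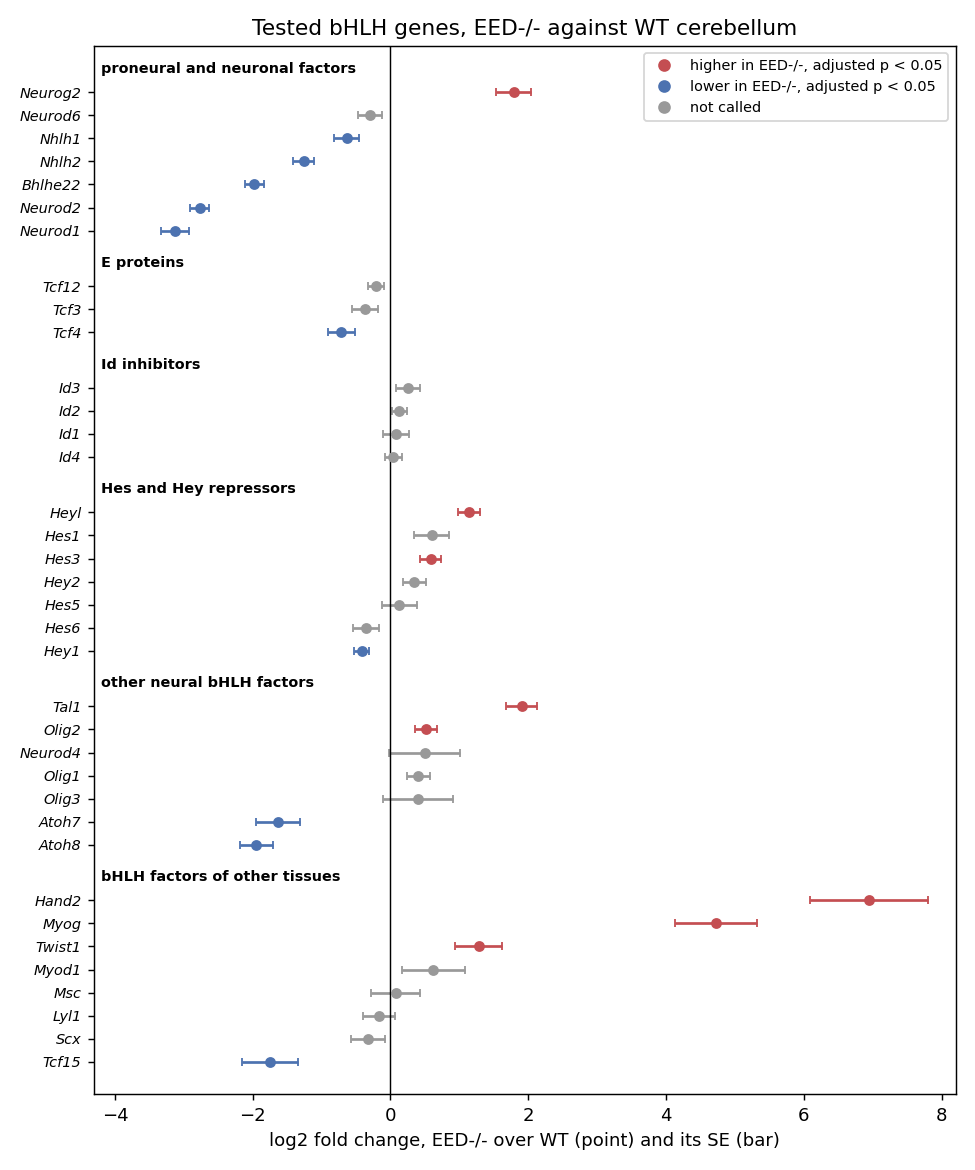
Log2 fold change of EED-/- over WT (points) with its SE (bars) for tested bHLH genes, grouped by role, with 1 gene not shown. Of the 7 proneural and neuronal factors 5 lie left of 0 and are called, the 4 Id genes lie near 0, and the position of Hand2, with 0 WT counts, and of Myog, with 4, depends on the prior count.

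Markers of the cerebellar lineages that use these factors changed unevenly. Of the 62 tested 10 rose and 25 fell, beside 11.7% higher and 14.1% lower over all tested genes, and the counts per list rest on few genes. Among 14 granule cell progenitor markers 4 rose and 5 fell, with a median log2 fold change of -0.02. Pax6, the homeodomain factor of rhombic lip derivatives, was at 25.3 ± 2.84 CPM in EED-/- and 134 ± 6.66 CPM in WT libraries (-2.41, edgeR adjusted p = 3.66e-05), and Cntn2, Boc, Barhl1 and Ptch1 fell too. Cyclin D2, encoded by Ccnd2, was at 118 ± 14.9 CPM in EED-/- and 45.3 ± 2.76 CPM in WT libraries (1.38, edgeR adjusted p = 0.000225), and the proliferation genes Ccnd1, Mki67 and Top2a rose too. The 4 markers that rose are cell cycle genes, which any dividing cell expresses. The other 5 were not called: the log2 fold change was -0.32 for Gli1, 0.15 for Gli2 and 0.13 for Hhip, all of the hedgehog pathway, -0.18 for Mycn and 0.31 for the Wnt antagonist Sfrp1.

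Among the granule neuron markers Cbln1, which encodes the synaptic organiser of parallel fibres, was at 87.0 ± 3.23 CPM in EED-/- and 731 ± 152 CPM in WT libraries (-3.07, edgeR adjusted p = 3.66e-05). The log2 fold changes were -2.76 for Grin2c, a subunit of the NMDA receptor, -2.41 for the zinc finger factor Zic1 and -2.17 for Chn2, and the median of the 13 markers was -2.77, beside -2.77 for Neurod2 and -3.13 for Neurod1. Of 6 unipolar brush cell markers Eomes, Calb2 and Nmb fell and Samd3 rose. Eomes, a T-box factor of glutamatergic lineages and of unipolar brush cells, was at 10.8 ± 2.31 CPM in EED-/- and 25 ± 3.75 CPM in WT libraries (-1.20, edgeR adjusted p = 0.00278). Calb2 is shared with granule neurons, and the calls of Nmb and Samd3 held in 3 and 5 of the 13 alternatives. Samd3, with 29 counts over the WT libraries, passed the filter on low counts only through the EED-/- libraries.

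Glutamatergic cerebellar nuclei are another product of the rhombic lip, and 4 of their 8 tested markers rose and 1 fell. Lhx2, Meis2, Slc17a6 and Nefh rose and Meis1 fell, with a median log2 fold change of 0.80 over the list, and 2 were higher without EED-/- replicate 2, EED-/- replicate 3 or WT replicate 3. Not called were Tbr1 (-0.02, edgeR adjusted p = 0.975), Irx3 (0.30, edgeR adjusted p = 0.329) and Lhx9 (1.73, edgeR adjusted p = 0.136). Slc17a6 varied widely in WT libraries, at 111 ± 49.9 CPM, against 243 ± 39.1 CPM in EED-/-. Lhx2 was at 7.39 ± 1.52 CPM in EED-/- and 1.97 ± 0.632 CPM in WT libraries (1.90, edgeR adjusted p = 0.0019). Of the GABAergic lineage, which descends from Ptf1a-expressing cells, 12 of 13 markers were tested, 1 rose and 4 fell, with a median of -0.06. Kit, a receptor of molecular layer interneurons, was at 44.6 ± 1.93 CPM in EED-/- and 114 ± 11.2 CPM in WT libraries (-1.35, edgeR adjusted p = 0.000166), and Tfap2a, Lhx1 and Tfap2b fell too. Gad2, a GABA-synthesising enzyme, was at 223 ± 28.6 CPM in EED-/- and 118 ± 24.7 CPM in WT libraries (0.92, edgeR adjusted p = 0.00644).

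None of the 10 Purkinje cell markers was called by edgeR, with 3 at an unadjusted p under 0.05, while DESeq2 called 2 higher and limma-voom 1 higher. The smallest p was that of Foxp2, at 37.2 ± 6.19 CPM in EED-/- and 11.5 ± 7.53 CPM in WT libraries (edgeR adjusted p = 0.0623). Without WT replicate 1, without WT replicate 2, without a filter on low counts, and under upper-quartile or library-size scaling, edgeR called 1 Purkinje marker higher.

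**Figure D5:**
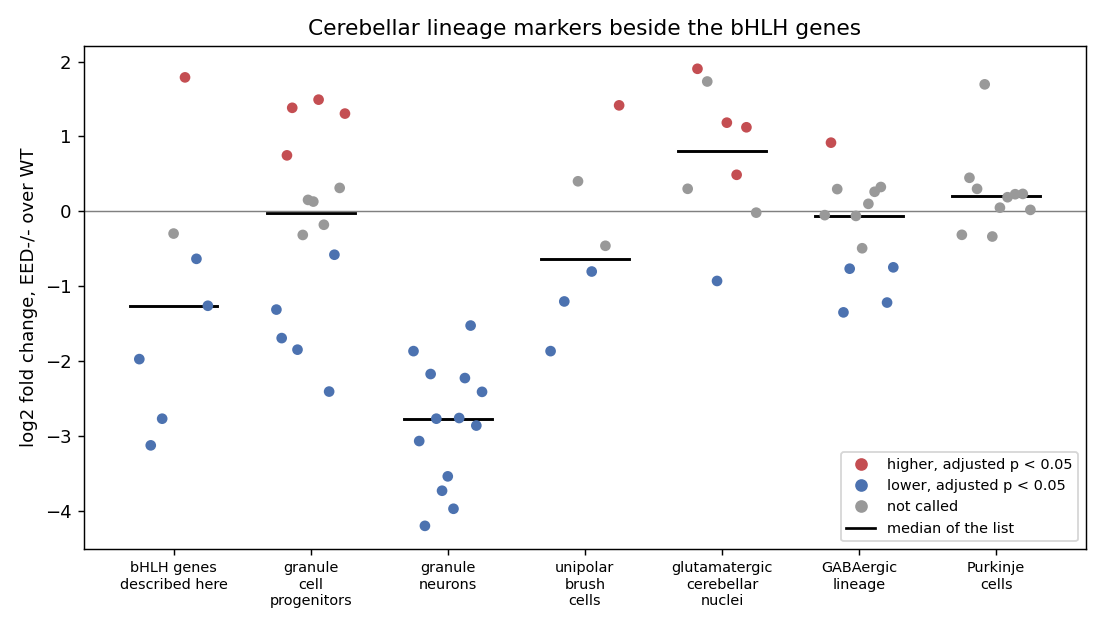
Log2 fold change of EED-/- over WT for the 7 tested bHLH genes and for the markers of 6 cerebellar lineages (points, coloured by call), with bars at the list medians. All 13 granule neuron markers are lower in EED-/-, with a median of -2.77, while those of cerebellar nuclei have a median of 0.80 and none of the Purkinje cell markers is called by edgeR.

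Neurog2, Neurod6, Neurod2 and Bhlhe22 are also expressed outside the cerebellum, so markers of neighbouring regions and of other cells were counted. The counts stand beside 11.7% higher and 14.1% lower over all tested genes. Of 6 tested forebrain excitatory markers 4 rose, with a summed level of 227 to 232 CPM in EED-/- and 135 to 178 CPM in WT libraries. Emx2 was at 3.05 ± 1.09 CPM in EED-/- and 0.263 ± 0.146 CPM in WT libraries, while the defining markers Emx1 and Fezf2 were under 1 CPM in both genotypes and not tested. With 15 counts over the WT libraries, Emx2 passed the filter on low counts only through the EED-/- libraries. Of 8 brainstem and midbrain markers 4 rose, with 129 to 156 CPM in EED-/- and 44.3 to 102 CPM in WT libraries, led by Pou4f1 at 11.1 ± 2.05 CPM in EED-/- and 1.96 ± 1.07 CPM in WT libraries. Isl1, among these 4, had 27 counts over the WT libraries and likewise passed the filter only through the EED-/- libraries. The part of either list in the rise of Neurog2 was not tested.

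Other cell types moved in places, beside 11.7% higher and 14.1% lower over all tested genes. Of 6 microglia markers 4 rose, with 198 to 211 CPM in EED-/- and 114 to 124 CPM in WT libraries. Of 5 oligodendrocyte markers 1 fell, and 1 was called higher without EED-/- replicate 3, and of 6 astrocyte and Bergmann glia markers 2 rose and 2 fell. Without EED-/- replicate 1 or 2 or WT replicate 3, 1 of the astrocyte markers was called higher. None of 3 endothelial and 3 choroid plexus markers was called by edgeR, with 0 at an unadjusted p under 0.05 and 0 called by DESeq2 or limma-voom, but 2 choroid plexus markers were called lower without EED-/- replicate 3. None of 5 blood markers was called by edgeR, with 4 at an unadjusted p under 0.05 1 called higher by DESeq2 and 0 by limma-voom, but all 5 were called higher without EED-/- replicate 3, and their sum was 355 to 1775 CPM in EED-/- and 255 to 555 CPM in WT libraries. The 6 pineal and photoreceptor markers summed to 1.03 to 1.46 CPM in EED-/- and 0.858 to 1.69 CPM in WT libraries, with 1 of them tested and not called, and Asmt at 0 counts in each library.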

How the data were processed

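RNA-seq of 3 EED-/- and 3 WT cerebellum libraries was analysed. The authors deposited expected counts per Ensembl gene, of which 22.5% to 23.6% per library were not whole to within 1e-06, and a table of log2 fold changes, p-values and a test score (fold change over SE). Tools listed in the submitters' processing notes are Salmon 1.1.0, Trimmomatic 0.36 and DESeq2 1.26.0, with the build GRCm38. Salmon splits reads shared by overlapping or similar genes.

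Estimated counts were rounded and filtered with edgeR's filterByExpr (18091 genes left), then tested with edgeR 4.0.16 (TMM, robust quasi-likelihood F test, genotype as the only term) in R 4.3.3, adjusted over all tested genes with a threshold of 0.05. DESeq2 1.42.0 and limma 3.58.1 (voom) were alternatives, with RLE, upper-quartile and library-size scaling, no filter, a replicate block and each library left out, 13 in all. Log2 CPM used a prior count of 2. The procedure was also run on simulated counts, with the same dispersion for every gene and changes only in well-counted genes, in equal numbers up and down. That setting is unlike these data, so it does not give the error rate here. Exon lengths and positions came from GENCODE M21 (GRCm38), promoters from RefSeq. Genes under 1 CPM rest on few counts, and intervals cover counting error only. No replicate pair agreed within sampling noise, with a chi-square of 8.36 to 55.2 per degree of freedom.

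The 9 genes, the marker lists and the rule for named genes were chosen with earlier results of these data known. The rule took all 9 genes, and of each bHLH or lineage list up to 4 called genes with the smallest adjusted p, or the gene with the smallest p. It also took, for each of the 9 with a mean of at least 1 CPM, the 2 genes nearest in log2 CPM over the 6 libraries. Tcf3, Tcf12, Cerkl, Ptf1aos, Gabra6, Reln, Cbln3, Barhl1, Ptch1, Gli1, Gli2, Hhip, Mycn, Sfrp1, Ccnd1, Mki67, Top2a, Slc17a6, Tbr1, Irx3, Lhx9, Tfap2b, Olig2, neighbouring genes and genes of other regions were named after their values were seen. Some genes of these lists are not reported here by name. Protein sequences were not used here. Chromatin samples were not analysed here.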

Additional observations from a re-analysis of the deposited data

How the results depend on the processing

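Neurod1, Neurod2, Bhlhe22, Nhlh2 and Neurog2 were called in the same direction under all 13 alternatives, and Neurod6 under none of them, with a log2 fold change of -0.40 to -0.17. The call of Nhlh1 held in 5 of 13. It was lost with upper-quartile factors (-0.52, edgeR adjusted p = 0.0755), with library size alone (-0.53, edgeR adjusted p = 0.0695) and with the replicate block (-0.63, edgeR adjusted p = 0.0869). Leaving out 1 library gave -0.74 to -0.42 (edgeR adjusted p = 0.0319 to 0.142). With the block, which left fewer residual degrees of freedom, 1 of the 9 genes was higher and 4 lower, 5 other bHLH genes were higher, and all genes gave 1505 higher and 1706 lower. Replicate numbers are not said to pair libraries, and deviations of same-numbered libraries correlated at 0.0276, -0.233 and -0.00125. With 3 libraries per genotype these values cannot decide whether same-numbered libraries belong together.

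Leaving out 1 library gave 4 to 10 other bHLH genes higher and 2 to 5 lower, 7 to 12 lineage markers higher and 24 to 25 lower, and 1205 to 2176 genes higher and 1335 to 2476 lower in all. Higher genes made up 45.5% of all calls, against 61.3% with upper-quartile factors (2828 higher, 1786 lower) and 58.6% with library size alone (2641 higher, 1865 lower). Those scalings moved the median log2 fold change by 0.117 and 0.0999. Against 14 granule cell progenitor markers in place of the granule neuron markers, the within-library differences, EED-/- minus WT, were -2.96 for Neurod1, -2.56 for Neurod2, -1.76 for Bhlhe22, -1.04 for Nhlh2, -0.42 for Nhlh1, -0.11 for Neurod6 and 1.89 for Neurog2. The signs of Neurod2, Bhlhe22, Nhlh2, Nhlh1 and Neurod6 thus differed from those against the granule neuron markers. This follows from the reference subtracted, since the level of the gene itself is the same in both measures. The median log2 fold change was -2.77 over the granule neuron markers and -0.02 over the progenitor markers. For Neurod6 the difference against the progenitor markers lay within the library spread (exact permutation p = 0.7). Depth limited Atoh1 and Ptf1a, which had at most 12 counts in a library.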

Other observations

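The genes nearest to each bHLH gene over the 6 libraries were found by the Euclidean distance of log2 CPM, centred on the WT mean. The search covered 14842 tested genes, after gene-model, clone, pseudogene and mitochondrial symbols were left out. Neurod2 lay nearest to Dact1, an intracellular modulator of Wnt signalling, at a distance of 0.139, and to the granule cell factor Zic2 at 0.251. Dact1 averaged 14.4 CPM in EED-/- and 96.6 CPM in WT libraries, and Zic2 averaged 45.8 CPM in EED-/- and 292 CPM in WT libraries. Neurod1 lay nearest to Adamts18 at 0.424 and to Mybpc3, a myosin-binding protein gene best known from heart muscle, at 0.499. Mybpc3 averaged 18 CPM in EED-/- and 180 CPM in WT libraries, so it fell, while Myh3, Myh8, Ckm, Acta1 and Myog rose and Myod1 was not called. Bhlhe22 lay nearest to Mrgprf at 0.0700 and to Dgkd at 0.150. Nhlh2 lay nearest to Cecr2 at 0.173 and Megf10 at 0.227, and Nhlh1 to Otud1 at 0.162 and Dgkz at 0.164. Neurod6 lay nearest to Mamdc2 at 0.136 and Nlrx1 at 0.140. Neurog2, the gene that rose, lay nearest to Jph2, a junctophilin of striated muscle, at 0.270 and to the T-box factor Tbx15 at 0.378. Jph2 averaged 3.71 CPM in EED-/- and 0.992 CPM in WT libraries, and Tbx15 averaged 3.69 CPM in EED-/- and 1.1 CPM in WT libraries. These distances rank genes within 6 libraries and carry no test.

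The tested protein-coding genes on either side of the 9 bHLH genes were called about as often as any gene: of 18 neighbours 3 rose and 2 fell, or 27.8%, beside 25.8% over all tested genes. Alpk1, which encodes an innate immune kinase and lies 34.7 kb from Neurog2, was higher along with it, at 6.32 CPM in EED-/- and 2.66 CPM in WT libraries (log2 fold change 1.25, edgeR adjusted p = 0.00146). Zgrf1, on the other side of Neurog2, averaged 5.72 CPM in EED-/- and 8.97 CPM in WT libraries and was not called. Cyp7b1, an oxysterol hydroxylase 14.4 kb from Bhlhe22, rose (0.54, edgeR adjusted p = 0.0191) while Bhlhe22 fell. Slc22a15, a transporter 85.6 kb from Nhlh2, fell with it (-0.88, edgeR adjusted p = 0.00553). Around Ptf1a, Msrb2 rose (0.53, edgeR adjusted p = 0.043) and Otud1 fell (-0.58, edgeR adjusted p = 0.048). The 4 neighbours of Neurod1 and Neurod2, whose falls were the largest, were not called.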
